A study of Mus musculus with 2 samples.

Results

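The antioxidant genes described here are Txnrd1 and 9 others that answer to, or encode, the transcription factor NRF2: Nfe2l2, Srxn1, Cat, Gclm, Gclc, Gsr, Slc7a11, Hmox1 and Nqo1. They are 10 of the 24130 gene symbols in each of the 2 deposited libraries, and all 10 were found by symbol in both. The genes were chosen by name, as a pathway that includes a known target of gold compounds, and with earlier ratios of these libraries in view: Txnrd1 and Cat were selected on large ratios. Their ratios between the libraries are therefore a description and not evidence for the choice.

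Transcripts of single cells dissociated from mouse hippocampus with papain (30 min at 37 °C) were counted as unique molecular identifiers (UMIs, 1 per captured RNA molecule) by the 10x method. Both groups were male C57BL/6 mice, given as 6 months old although the titles call the brain aged. Mice given saline supplied the control library. The EMF_AuNPs library came from mice with gold nanoparticles injected into the hippocampus and 3 weeks between Helmholtz coils that made an electromagnetic field. The protocol does not make clear whether the control mice also stood in the coils. How many animals went into each library is not given in the sources used here. With these libraries, field and particles cannot be told apart.

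NRF2, the protein of Nfe2l2, is held low in resting cells by KEAP1, which feeds it to a ubiquitin ligase. Oxidants and electrophiles modify KEAP1, NRF2 then gathers in the nucleus with a small MAF partner, and the pair binds antioxidant response elements of genes for the thioredoxin system, glutathione synthesis, haem breakdown and quinone reduction. Thioredoxin reductase is a selenoprotein whose selenocysteine is bound by gold compounds. In the brain, astrocytes are known as a main site of this programme.

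RefSeq promoters (build GRCm38.p6, 250 bases before to 50 after a start site) were found for 7 of the 10 genes, in 9 windows, because Txnrd1 has 3 start sites there. Each was searched on both strands for the core of the antioxidant response element, TGACNNNGC, and for the looser TGANNNNGC, which also takes in every TGACNNNGC. Of all 32851 windows in the table, 12.4% held TGACNNNGC and 41.3% held TGANNNNGC. Among these genes, 4 windows of 4 genes held TGACNNNGC (Txnrd1, Srxn1, Gclm and Nfe2l2), and 6 windows of 5 genes held TGANNNNGC. The windows below are shown because they belong to the gene with the lowest ratio (Txnrd1, second window), a gene that differed little (Srxn1) and genes with high ratios (Slc7a11 and Cat). Capitals mark the matches on either strand.
Txnrd1 (chr10:82858956-82859255, plus strand): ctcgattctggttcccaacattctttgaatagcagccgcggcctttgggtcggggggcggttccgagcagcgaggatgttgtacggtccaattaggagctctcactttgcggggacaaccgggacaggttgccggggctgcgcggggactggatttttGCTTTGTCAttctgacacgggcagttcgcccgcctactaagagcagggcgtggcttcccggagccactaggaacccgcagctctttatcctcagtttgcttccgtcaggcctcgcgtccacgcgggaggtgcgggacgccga
Srxn1 (chr2:152105274-152105573, plus strand): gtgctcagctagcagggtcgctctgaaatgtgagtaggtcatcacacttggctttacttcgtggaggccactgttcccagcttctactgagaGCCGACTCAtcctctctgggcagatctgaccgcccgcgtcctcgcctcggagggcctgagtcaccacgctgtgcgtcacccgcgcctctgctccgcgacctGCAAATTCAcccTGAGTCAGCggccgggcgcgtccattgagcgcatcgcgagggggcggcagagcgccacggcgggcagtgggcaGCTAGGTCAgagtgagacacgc
Slc7a11 (chr3:50443564-50443863, minus strand): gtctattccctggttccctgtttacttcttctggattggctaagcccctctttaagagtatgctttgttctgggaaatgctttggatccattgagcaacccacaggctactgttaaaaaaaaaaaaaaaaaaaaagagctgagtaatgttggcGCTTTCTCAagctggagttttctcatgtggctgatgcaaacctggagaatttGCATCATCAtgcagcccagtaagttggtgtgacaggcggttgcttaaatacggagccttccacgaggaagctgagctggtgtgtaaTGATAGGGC
Cat (chr2:103485104-103485403, minus strand): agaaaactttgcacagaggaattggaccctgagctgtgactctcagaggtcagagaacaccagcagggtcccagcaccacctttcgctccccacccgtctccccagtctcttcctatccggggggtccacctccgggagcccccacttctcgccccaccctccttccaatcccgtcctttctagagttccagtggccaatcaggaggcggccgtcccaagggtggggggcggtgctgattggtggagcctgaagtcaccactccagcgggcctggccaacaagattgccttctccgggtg

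In the second Txnrd1 window the match reads TGACAAAGC on the opposite strand, with its leftmost printed base at -92 when the start site is 0. Srxn1 held 4 matches, of which TGACCTAGC at 28 is the full core and TGAGTCAGC at -45 is a looser one. Slc7a11 held 3 looser matches and no full core. The Cat and Nqo1 windows held neither. A match is a run of letters, not a shown binding site, and these windows are short.

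The control library held 21583 barcodes and the EMF_AuNPs library 7003, with 51091452 and 19544686 UMIs. After a minimum of 500 UMIs and 250 genes per cell, 21425 and 6996 cells remained, with median depths of 1910 and 2312.5 UMIs, and 38 barcodes occurred in both libraries. Kept cells were sorted into classes by marker genes, each class being "like" the cell type whose markers chose it, and the 11 classes that reached 50 cells in both libraries were compared. The largest were oligodendrocyte-like (6501 control and 1095 EMF_AuNPs cells), astrocyte-like (3386 and 1624), microglia-like (3180 and 826), endothelial-like (2976 and 1112) and choroid plexus-like cells (522 and 184). Genes were ranked in each class and library by their level relative to the median of the compared classes. The top 10 of every compared class held at least 2 of its own markers and 0 of any other class. The classes were chosen by these same markers, so this is no independent check of their names. In this ranking the EMF_AuNPs microglia-like cells were led by Cd74 and H2-Aa, genes of antigen presentation. Haemoglobin RNA was more common in EMF_AuNPs cells of every compared class, with a median of 0.904% of UMIs against 0.0935% in microglia-like cells. Levels are given in CPM, the UMIs of a gene out of 1e+06 UMIs of its class, and ratios are log2 ratios of EMF_AuNPs over control with 1 CPM added. Brackets hold 95% intervals that cover counting error only. Each group has 1 library, so there is no replicate check of any difference, none was tested, and every value describes these 2 libraries and not the treatments.

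Over all kept cells the 10 genes did not move as a group. Cat, Slc7a11, Hmox1, Nqo1 and Gsr were at least 1.5-fold higher in the EMF_AuNPs library (a log2 ratio of at least 0.58), Txnrd1 was at least 1.5-fold lower, and Gclc, Srxn1, Gclm and Nfe2l2 lay between. These 5 and 1 of 10 genes stand beside 9.69% higher and 7.02% lower among all 15402 genes with at least 20 UMIs over both libraries. Since ratios of this contrast were in view when the genes were chosen, nothing is read from that excess. Of all genes tested, 262 had a lower ratio than Txnrd1 and 223 a higher ratio than Cat. Sums over all kept cells mix the level per cell with the make-up of the library, so the values within classes follow.

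**Figure D1:**
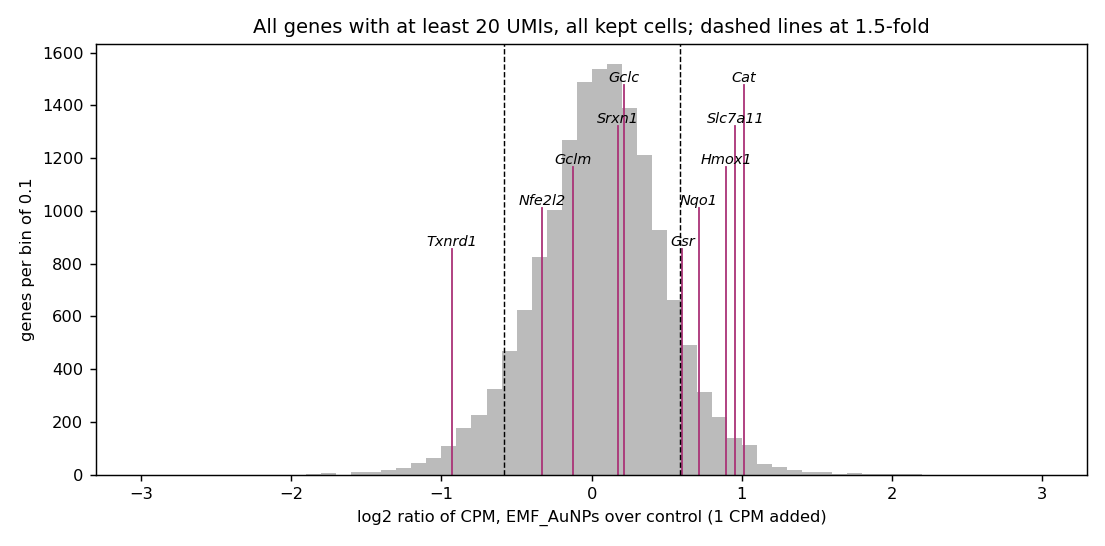
Histogram of the log2 ratio of CPM (EMF_AuNPs over control, 1 CPM added, all kept cells; x axis) against the number of genes per bin (y axis) for the 15402 genes with at least 20 UMIs, with a labelled line for each of the 10 genes and dashed lines at 1.5-fold. Txnrd1 at -0.93 lies in the lower tail, and Slc7a11 at 0.96 and Cat at 1.01 lie in the upper tail.

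Nfe2l2 encodes NRF2 itself (GRCm38 chromosome 2, 75675513 to 75704641, minus strand). Over all kept cells it was 106 CPM (103 to 109) in control against 83.9 CPM (79.9 to 88.1) in EMF_AuNPs, a ratio of -0.33 (-0.41 to -0.25). The intervals of the levels did not overlap. Its ratio was below 0 in all 10 classes with at least 20 UMIs, and the interval lay below 0 in 6 of them. Its level was highest in macrophages: in the control library border macrophage-like cells, which sit along vessels and in the meninges, had 359 CPM (279 to 455), microglia-like cells 228 CPM (215 to 242) and endothelial-like cells 132 CPM (123 to 141). In EMF_AuNPs the same classes led, with 228, 187 and 105 CPM, but the intervals of the first and second overlapped. Choroid plexus-like cells had the lowest ratio among the large classes, with 76.5 and 49.4 CPM (-0.62, -0.96 to -0.32). NRF2 is controlled mainly as a protein, which these counts do not measure.

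Txnrd1 encodes the cytosolic thioredoxin reductase, which uses NADPH to recharge thioredoxin (chromosome 10, 82833951 to 82897712, plus strand). Its 2670 UMIs lay in 2354 cells of the control library and its 528 in 472 cells of the EMF_AuNPs library. These made 52.5 CPM (50.5 to 54.5) against 27.0 CPM (24.8 to 29.4) and a ratio of -0.93 (-1.09 to -0.82). In oligodendrocyte-like cells it was 55.8 CPM (52.3 to 59.6) against 26.4 CPM (21.5 to 32.1) (-1.05, -1.39 to -0.78). Endothelial-like cells had 62.3 CPM (56.2 to 68.9) and 27.8 CPM (22.2 to 34.4) (-1.14, -1.52 to -0.82). Astrocyte-like cells had 51.3 CPM (45.6 to 57.5) and 27.4 CPM (22.3 to 33.3) (-0.88, -1.25 to -0.58). In each of these 3 classes the control level was the higher, and the intervals of the levels did not overlap.

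Microglia-like cells showed a smaller Txnrd1 difference, with 43.3 CPM (37.8 to 49.4) against 31.3 CPM (23.3 to 41.2), a ratio of -0.46 (-0.94 to -0.02). One EMF_AuNPs cell held 8 of the 51 UMIs there, and without the cell of each library with most Txnrd1 UMIs the ratio was -0.68, past 1.5-fold. Choroid plexus-like cells, which make cerebrospinal fluid, had 34.9 CPM (30.3 to 40.1) against 31.5 CPM (24.3 to 40.1), a ratio of -0.15 (-0.58 to 0.26) that held 0. Their median gene stood at 0.29, and the Txnrd1 ratio centred on it was -0.44. Whether the ratio of a class differs from that of another was not tested. Smaller classes had fewer UMIs: 28 and 6 in pericyte-like cells (-1.55, -3.15 to -0.29), 60 and 14 in ependymal-like (-0.96, -1.93 to -0.12), 24 and 10 in smooth muscle-like (-1.04, -2.30 to 0.04) and 51 and 2 in neuron-like cells (-1.46, -4.58 to 0.43). All 9 classes with at least 20 UMIs thus had a ratio below 0, and the interval lay below 0 in 6.

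The order of the classes by Txnrd1 level differed between the libraries. In control, ependymal-like cells came first at 90.7 CPM (69.2 to 117), then neuron-like at 77.0, pericyte-like at 68.2 and endothelial-like at 62.3 CPM, and red blood cell-like cells last at 14.1 CPM. In EMF_AuNPs, ependymal-like cells were at 46.0 CPM (25.1 to 77.1), and the next 6 classes lay between 26.4 and 31.5 CPM. No class was clear of its neighbour in the order in either library. The EMF_AuNPs levels of neuron-like (3.31 to 98.7 CPM) and pericyte-like cells (8.30 to 49.2 CPM) rested on 2 and 6 UMIs. Counting error alone could thus change their places. Over the 9 classes with at least 20 Txnrd1 UMIs, the log2(CPM + 1) levels of the libraries had a Pearson r of 0.26. Srxn1, Gclc, Slc7a11, Hmox1, Nqo1, Gsr, Cat and Nfe2l2 had 0.88 to 0.99 over 5 to 10 classes, and Gclm 0.79 over 11. These sets of classes differ, so the values are not like for like. For Txnrd1 the border macrophage-like (26.4 and 9.30 CPM) and red blood cell-like cells (14.1 and 2.47 CPM), lowest in both libraries, were left out. Points of a library share its depth and free RNA, so these are descriptions.

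When each cell was thinned to 1000 UMIs, to set aside depth, a Txnrd1 UMI was found in 5.22% (4.90 to 5.56) of cells in the control library and 2.67% (2.26 to 3.13) in the EMF_AuNPs library. The thinning left out 3579 and 1379 shallower cells, and without it the shares were 11.0% and 6.75%. Endothelial-like cells had 6.28% and 2.50%, and ependymal-like cells 17 of 124 and 0 of 52 cells. At the thinned depth that 0 allows a share of up to 5.77% (3 counts), and without thinning 13 of 62 EMF_AuNPs ependymal-like cells had a Txnrd1 UMI. Red blood cell-like cells, with the lowest level, had 0.671% and 0.291%. Their own markers took up 650813 CPM in control and 682273 CPM in EMF_AuNPs, which lowers the CPM and thinned share of every other gene there. No compared class is known to lack this widely used gene, so no background could be read. Eid3, which overlaps Txnrd1 on the same strand, had 14 and 11 UMIs.

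**Figure D2:**
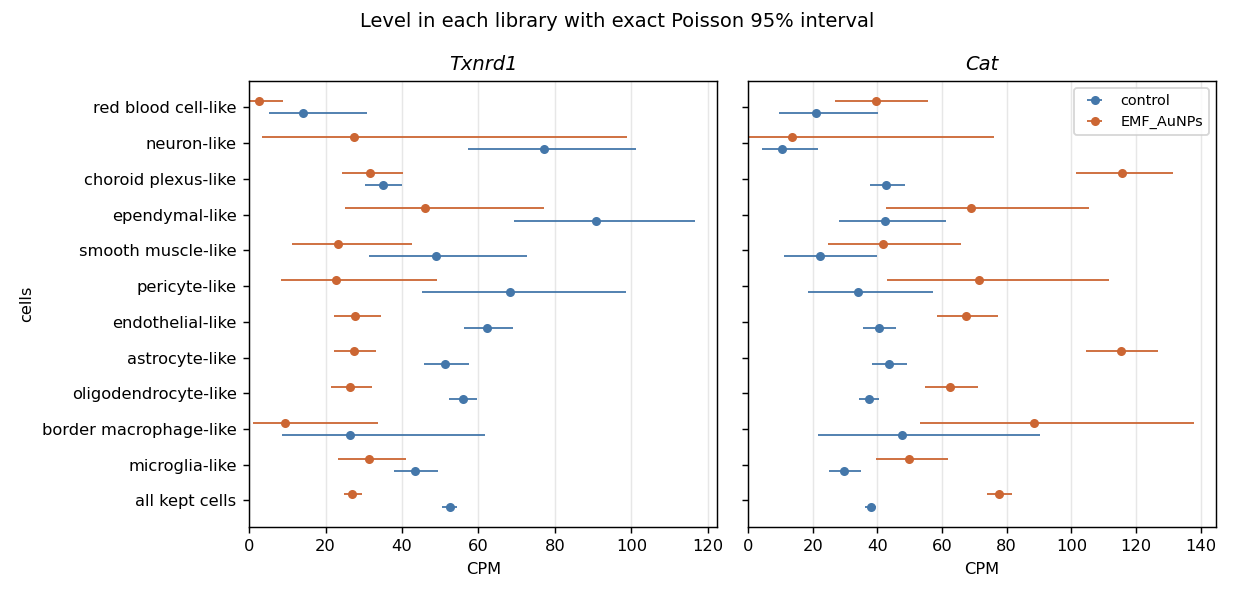
Levels of Txnrd1 (left) and Cat (right) in CPM (x axis) for all kept cells and the 11 compared classes (y axis), control in blue and EMF_AuNPs in orange, with exact Poisson 95% intervals as bars. Txnrd1 points of EMF_AuNPs lie left of control in each class, least so in choroid plexus-like cells (34.9 and 31.5 CPM), and Cat points lie right of control, farthest in astrocyte-like (43.6 and 115 CPM) and choroid plexus-like cells (42.8 and 116 CPM).

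Srxn1 encodes sulfiredoxin, which repairs over-oxidised peroxiredoxins (chromosome 2, 152105516 to 152111376, plus strand). It was 10.3 CPM (9.44 to 11.2) in control against 11.8 CPM (10.3 to 13.4) in EMF_AuNPs, a ratio of 0.18 (-0.04 to 0.42). In oligodendrocyte-like cells it was 10.6 and 14.8 CPM (0.44, 0.01 to 0.92), and the intervals of the ratio held 0 in the other 5 classes with at least 20 UMIs. Its ratio there ran from 0.03 in endothelial-like to 0.65 (-1.74 to 2.46, 17 and 3 UMIs) in neuron-like cells. The full core was found in the Srxn1 window and, of the 3 Txnrd1 windows, in the second only. The ratios of Srxn1 and Txnrd1 were 0.18 and -0.93. Which Txnrd1 start site was in use is not known from these counts, and whether a match bears on a ratio was not tested.

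Cat encodes catalase, the peroxisomal enzyme that splits hydrogen peroxide (chromosome 2, 103453849 to 103485160, minus strand). Its 1932 UMIs lay in 1759 cells of the control library and its 1517 in 1178 cells of the EMF_AuNPs library. The levels were 38.0 CPM (36.3 to 39.7) against 77.6 CPM (73.8 to 81.7), with a ratio of 1.01 (0.93 to 1.13). Astrocyte-like cells had 43.6 CPM (38.4 to 49.3) against 115 CPM (105 to 127) (1.38, 1.18 to 1.63). Choroid plexus-like cells had 42.8 CPM (37.7 to 48.5) and 116 CPM (102 to 131) (1.41, 1.17 to 1.70). In EMF_AuNPs these 2 Cat levels came first, but the interval of border macrophage-like cells (88.3 CPM, 53.2 to 138) overlapped both. In control the same classes lay among 5 between 40.4 and 47.5 CPM whose intervals overlapped.

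Oligodendrocyte-, endothelial- and microglia-like cells had Cat ratios close to each other: 37.3 and 62.5 CPM (0.73, 0.52 to 0.96), 40.4 and 67.5 CPM (0.73, 0.47 to 1.01) and 29.7 and 49.7 CPM (0.72, 0.33 to 1.14). In the 5 other classes with at least 20 UMIs the ratio ran from 0.69 in ependymal-like to 1.05 in pericyte-like cells, and each of those intervals held 0. All 10 classes had a ratio above 0. Of thinned cells, 3.58% (3.31 to 3.86) in control and 6.66% (6.02 to 7.34) in EMF_AuNPs had a Cat UMI, and in astrocyte-like cells 4.01% and 11.9%. Unthinned shares over all kept cells were 8.21% and 16.8%. No class that lacks Cat was at hand as background, and neuron-like cells, with 3 of 204 and 1 of 34 thinned cells, had the fewest.

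Glutathione is made from glutamate, cysteine and glycine, and its rate-limiting enzyme joins a catalytic subunit (Gclc, chromosome 9, 77754535 to 77794485, plus strand) to a modifier subunit (Gclm, chromosome 3, 122245557 to 122270732, plus strand). Gclc was 36.0 CPM (34.4 to 37.7) in control against 42.0 CPM (39.2 to 45.0) in EMF_AuNPs, a ratio of 0.22 (0.10 to 0.34). Gclm was 110 CPM (107 to 113) and 101 CPM (96.8 to 106), a ratio of -0.12 (-0.20 to -0.05). Both differences are below 1.5-fold. In oligodendrocyte-like cells Gclc was 36.6 and 51.4 CPM (0.48, 0.25 to 0.73) while Gclm was 142 and 139 CPM (-0.03, -0.17 to 0.11). In endothelial-like cells Gclc was 30.1 and 39.7 CPM (0.39, 0.06 to 0.74) and Gclm 127 and 133 CPM (0.07, -0.11 to 0.25). In both classes the interval excluded 0 for the catalytic and held 0 for the modifier subunit.

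Ependymal-like cells, which line the ventricles, had the highest level of Gclc in both libraries, at 174 CPM (143 to 209) and 194 CPM (147 to 250), clear of every other class. Their Gclm was 193 CPM (161 to 230) in control, the highest there, and 125 CPM (88.3 to 171) in EMF_AuNPs (-0.63, -1.20 to -0.10). Red blood cell-like cells had 134 CPM (102 to 174) and 61.7 CPM (45.8 to 81.3) of Gclm (-1.11, -1.70 to -0.55), and their control interval reached into that of the ependymal-like cells.

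Gsr encodes glutathione reductase, which returns oxidised glutathione to its reduced form (chromosome 8, 33652523 to 33698163, plus strand). Over all kept cells it was 19.1 CPM (17.9 to 20.3) in control against 29.5 CPM (27.1 to 32.0) in EMF_AuNPs, a ratio of 0.60 (0.48 to 0.78), just above the 1.5-fold line. Choroid plexus-like cells had the largest ratio, with 10.8 CPM (8.29 to 13.8) and 28.1 CPM (21.3 to 36.3) (1.30, 0.84 to 1.92). Astrocyte-like cells had 15.8 and 29.3 CPM (0.85, 0.47 to 1.30), microglia-like cells 11.0 and 18.4 CPM (0.69, 0.05 to 1.40) and oligodendrocyte-like cells 21.8 and 34.8 CPM (0.65, 0.38 to 0.97). In all 6 classes with at least 20 UMIs the ratio lay above 0, and the interval lay above 0 in 5. The exception was the ependymal-like class, which led in level in both libraries with 65.0 CPM (47.0 to 87.5) and 82.1 CPM (53.1 to 121) (0.33, -0.44 to 1.08). Gsr and Txnrd1, the reductases of the glutathione and thioredoxin systems, lay on opposite sides of 0 in these 6 classes.

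Slc7a11 encodes the xCT subunit of the exchanger that brings in cystine for glutathione and releases glutamate (chromosome 3, 49892526 to 50443614, minus strand). It was 37.7 CPM (36.1 to 39.5) in control against 74.2 CPM (70.4 to 78.1) in EMF_AuNPs, a ratio of 0.96 (0.88 to 1.07). Astrocyte-like cells held 831 of the 1920 control and 922 of the 1449 EMF_AuNPs UMIs, at 143 CPM (134 to 153) and 250 CPM (234 to 267) (0.80, 0.67 to 0.94). They led the compared classes in both libraries, clear of the next. Of their thinned cells 12.3% (11.0 to 13.7) and 20.9% (18.5 to 23.3) had a UMI, against 2 of 503 and 2 of 182 choroid plexus-like cells, the class with the lowest level; the median depths were 1425 and 1986 UMIs in astrocyte-like and 11781 and 13171.5 in choroid plexus-like cells. Without thinning, the astrocyte-like shares were 19.0% and 34.2%.

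In the other large classes the interval of the Slc7a11 ratio held 0. Oligodendrocyte-like cells had 12.7 and 16.1 CPM (0.32, -0.09 to 0.77), microglia-like cells 17.3 and 22.1 CPM (0.33, -0.25 to 0.93) and endothelial-like cells 16.2 and 15.2 CPM (-0.08, -0.63 to 0.43). Microglia-like cells with a haemoglobin share under 1% had a ratio of -0.25, while the mean CPM over all microglia-like cells gave 0.61. The oligodendrocyte-like ratio was 0.595 with likely doublets called by Scrublet left out. Both 0.61 and 0.595 are past 1.5-fold. In choroid plexus-like cells the ratio of 0.67 (-0.31 to 1.87) rested on 21 and 13 UMIs. The summed astrocyte markers in control were 31757 CPM in astrocyte-like, 5172 CPM in microglia-like and 4179 CPM in endothelial-like cells. They were 3899 CPM in oligodendrocyte-like and 1007 CPM in choroid plexus-like cells. How much of the Slc7a11 in the other classes is RNA from astrocytes was not tested. Ependymal-like cells had 6 and 11 UMIs, under the minimum of 20, and a ratio of 1.88 (0.43 to 3.71). Slc3a2, whose protein is the heavy chain that pairs with xCT, was higher too, at 204 and 344 CPM (0.75, 0.71 to 0.80), and in astrocyte-like cells at 252 and 364 CPM (0.53, 0.42 to 0.64).

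Hmox1 encodes the inducible haem oxygenase, which breaks haem into biliverdin, iron and carbon monoxide (chromosome 8, 75093621 to 75100589, plus strand). It had 315 UMIs in control and 242 in EMF_AuNPs, which made 6.19 CPM (5.53 to 6.91) against 12.4 CPM (10.9 to 14.0), a ratio of 0.90 (0.75 to 1.25). Macrophages led in both libraries. Border macrophage-like cells had 58.0 CPM (29.0 to 104) and 144 CPM (97.9 to 205) from 11 and 31 UMIs (1.30, 0.28 to 2.45). Microglia-like cells had 18.1 CPM (14.6 to 22.2) and 47.9 CPM (37.8 to 59.7) from 92 UMIs in 86 cells and 78 UMIs in 56 cells (1.35, 0.95 to 1.85). Oligodendrocyte-like cells had 3.19 and 6.60 CPM (0.86, 0.30 to 1.76). Intervals held 0 in astrocyte-like (0.70, -0.01 to 1.66), choroid plexus-like (0.29, -0.72 to 1.33) and endothelial-like cells (0.21, -0.49 to 0.94). The choroid plexus-like ratio depended on the measure and was 1.56 with the mean CPM over cells.

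Red cell RNA was higher in EMF_AuNPs cells of every compared class, also where the interval of the Hmox1 ratio held 0. In endothelial-like cells, 1 such class, the median haemoglobin share was 0.0778% in control and 0.727% in EMF_AuNPs. The summed level of the red blood cell markers in microglia-like cells was 1219 CPM in control and 8443 CPM in EMF_AuNPs, and the median haemoglobin share of border macrophage-like cells was 0.0893% and 0.723%. Hmox1 ratios in cells with a haemoglobin share under 1% were 1.58 (microglia-like) and 1.35 (border macrophage-like), against 1.35 and 1.30 in all cells. That limit kept 3171 of 3180 control but 462 of 826 EMF_AuNPs microglia-like cells, and shares under it can still differ between the libraries. Whether red cell RNA bears on the Hmox1 ratio was not tested. The summed border macrophage markers in microglia-like cells were 48.3 and 101 CPM, with 1 and 0 of 7 markers at 0. In microglia-like cells with no UMI of those markers the ratio was 1.27. One EMF_AuNPs microglia-like cell held 10 of the 78 UMIs, and without the cell of each library with most Hmox1 UMIs the ratio was 1.19. Of thinned microglia-like cells 1.54% (1.12 to 2.07) and 3.11% (1.88 to 4.81) had an Hmox1 UMI, against 0.286% and 0.526% of astrocyte-like cells. Without thinning these shares were 2.70% and 6.78% in microglia-like cells, at median depths of 1524 and 1825 UMIs.

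Nqo1 encodes a quinone reductase that uses NADH or NADPH (chromosome 8, 107388225 to 107403206, minus strand). It was 8.41 CPM (7.63 to 9.25) in control against 14.4 CPM (12.8 to 16.2) in EMF_AuNPs, a ratio of 0.71 (0.56 to 1.00). Choroid plexus-like cells held 207 of 428 and 123 of 282 UMIs, at 35.4 CPM (30.8 to 40.6) and 59.6 CPM (49.5 to 71.1) (0.73, 0.42 to 1.08), and were clear of the next class in EMF_AuNPs only. Astrocyte-like cells had 11.5 and 17.6 CPM (0.57, 0.10 to 1.13), close to but under 1.5-fold with 1 CPM added. In microglia-like cells the ratio of 0.81 (-0.44 to 2.47) rested on 12 and 8 UMIs.

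**Figure D3:**
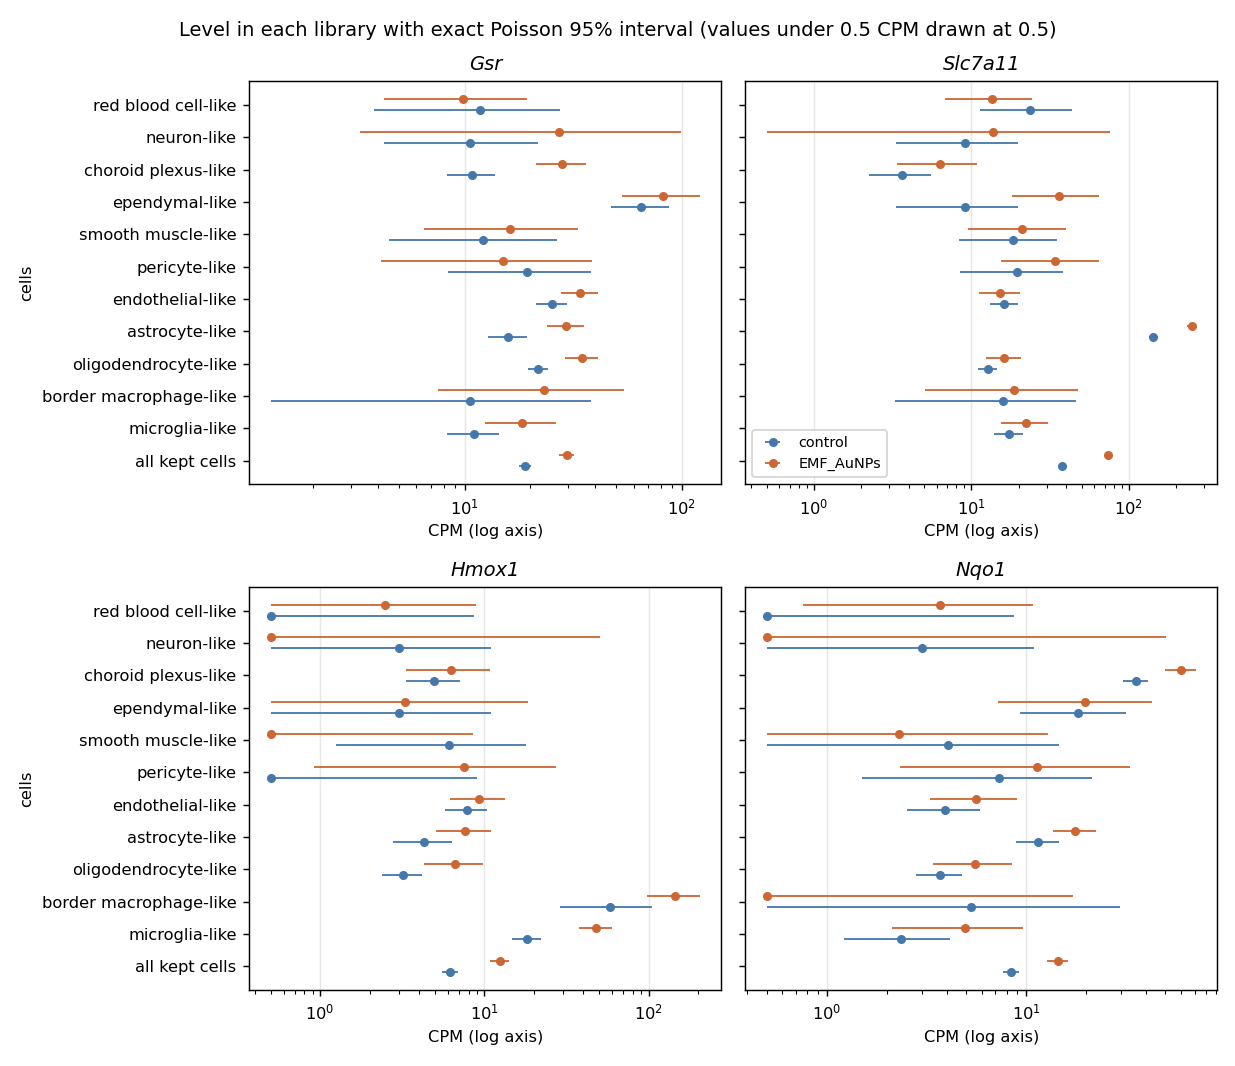
Levels of Gsr, Slc7a11, Hmox1 and Nqo1 in CPM (x axis, logarithmic) for all kept cells and the 11 compared classes (y axis), control in blue and EMF_AuNPs in orange, with exact Poisson 95% intervals; values under 0.5 CPM are drawn at 0.5. The highest points are ependymal-like for Gsr (65.0 and 82.1 CPM), astrocyte-like for Slc7a11 (143 and 250), border macrophage-like for Hmox1 (58.0 and 144) and choroid plexus-like for Nqo1 (35.4 and 59.6).

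Read by class, Cat was the gene at least 1.5-fold higher in each of the 5 large classes, and Txnrd1 was at least 1.5-fold lower in 3 of them. From microglia-like cells with at least 1000 UMIs the Cat ratio was 0.57, under 1.5-fold. In microglia-like cells Hmox1, Nqo1, Gsr and Cat were higher and 0 of 10 genes lower, where 11.2% of all genes were higher and 14.8% lower. In oligodendrocyte-like cells Hmox1, Gsr and Cat were higher and Txnrd1 lower, beside 6.99% and 10.7% of all genes. In astrocyte-like cells Slc7a11, Hmox1, Gsr and Cat were higher and Txnrd1 lower, beside 17.4% and 9.16%. In endothelial-like cells Cat was higher and Txnrd1 lower, beside 11.2% and 8.96%. In choroid plexus-like cells Slc7a11, Nqo1, Gsr and Cat were higher and Nfe2l2 lower, beside 28.5% and 5.74%, and the median of all genes there was 0.29, so counts of higher genes start from a raised baseline. Relative to that median 2 of the 10 genes, Gsr and Cat, were at least 1.5-fold higher, beside 12.7% of all genes centred in the same way. Centring also took Gsr over all kept cells to 0.54 and Hmox1 in astrocyte-like cells to 0.54, both under 1.5-fold. With 10 CPM added in place of 1, Hmox1 was under 1.5-fold over all kept cells (0.47), in oligodendrocyte-like (0.33) and in astrocyte-like cells (0.30), and so were Nqo1 over all kept cells (0.41) and in microglia-like cells (0.27). The same was true of Gsr over all kept cells (0.44), in microglia-like (0.43) and in oligodendrocyte-like cells (0.50), and of Slc7a11 (0.26) and Nfe2l2 (-0.54) in choroid plexus-like cells. All 10 genes had at least 20 UMIs in each of these 5 classes.

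**Figure D4:**
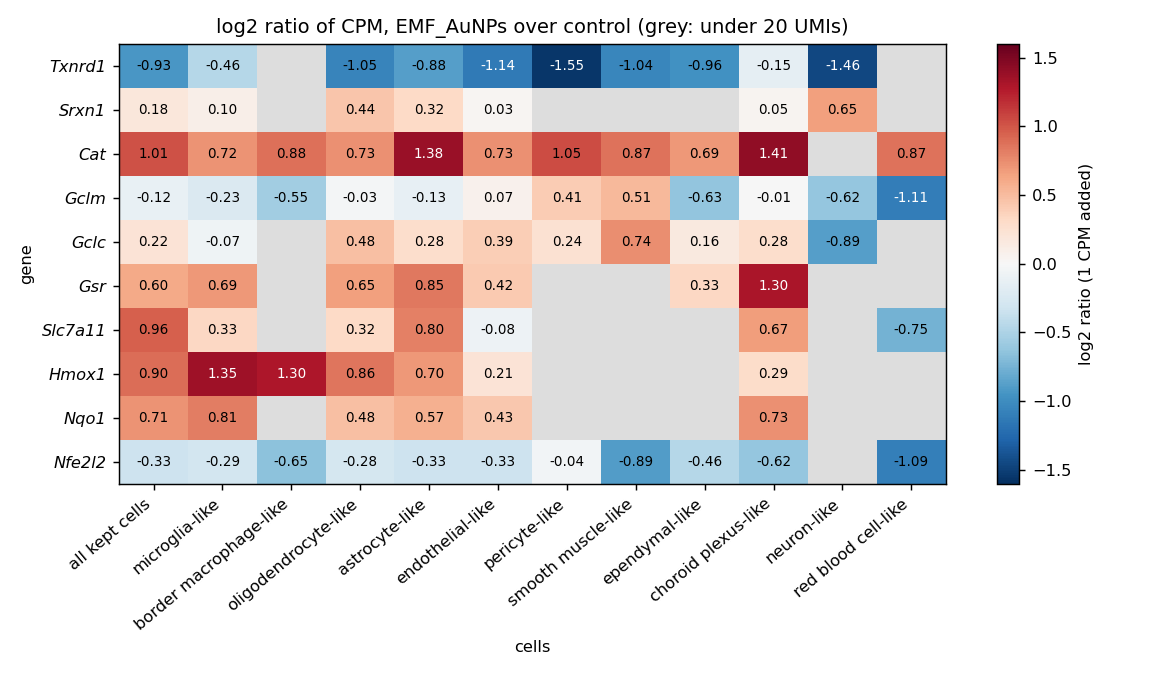
Map of log2 ratios of CPM (EMF_AuNPs over control, 1 CPM added) for the 10 genes (y axis) in all kept cells and the 11 compared classes (x axis), red for higher and blue for lower in EMF_AuNPs; grey cells of the map have under 20 UMIs over both libraries. The Txnrd1 and Nfe2l2 rows hold no value above 0, and the Cat row runs from 0.69 to 1.41.

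Other genes of the pathway were taken as 4 lists that leave out the 10 genes. Of 9 NRF2 regulators, 0 were at least 1.5-fold higher and 1 lower over all kept cells, beside 9.69% higher and 7.02% lower among all genes, with a median log2 ratio of -0.04 beside 0.07 for all genes. The lower gene was Nfe2l1, which encodes NRF1, a relative of NRF2 that drives proteasome genes, at 179 and 85.9 CPM (-1.05, -1.13 to -0.98). Its ratio was -1.46 in oligodendrocyte-like, -1.17 in endothelial-like, -1.13 in astrocyte-like, -1.08 in microglia-like and -0.72 in choroid plexus-like cells. Keap1, whose protein holds NRF2 in check, was 69.8 and 62.0 CPM (-0.17, -0.27 to -0.08). Sqstm1, whose protein p62 can draw KEAP1 into autophagy, was 164 and 110 CPM (-0.57, -0.64 to -0.50), and Rbx1, a subunit of the KEAP1 ligase, 325 and 317 CPM (-0.04, -0.08 to 0.01).

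Of 20 other NRF2 target genes 3 were higher and 0 lower, beside the same 9.69% and 7.02% of all genes, with a median of 0.24. The 3 were Mgst1 (1.07) and Ugdh (0.89), of detoxification, and Aox1 (0.74), an oxidase, which are named after their values were seen. The targets with most UMIs differed little: the ferritin genes Fth1 (-0.16) and Ftl1 (0.10), the glutathione transferase gene Gstm1 (0.38) and the pentose phosphate gene Taldo1 (0.04).

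Of 11 thioredoxin system genes 4 were higher and 0 lower, again beside 9.69% and 7.02% of all genes, with a median of 0.32. Prdx1, a peroxiredoxin that thioredoxin recharges, was 765 and 1183 CPM (0.63, 0.61 to 0.65), and its ratio was 1.06 in microglia-like cells and between 0.67 and 0.70 in the other 4 large classes. Prdx6 was 367 and 601 CPM (0.71, 0.68 to 0.75). Prdx3 (0.80) and Prdx4 (0.67), named after their values were seen, were the other two. Txn1, the cytosolic thioredoxin and substrate of the Txnrd1 enzyme, was 135 and 168 CPM (0.32, 0.26 to 0.38), and Txnrd2, the mitochondrial reductase, 14.4 and 17.2 CPM (0.24, 0.06 to 0.44). Txn1 was at least 1.5-fold lower in border macrophage-like and neuron-like cells. Txnrd3, the third reductase gene, named after its values were seen, had a ratio of -0.26 over all kept cells and of -0.62 in endothelial-like cells, from 78 and 24 UMIs. It was at least 1.5-fold lower in ependymal-like cells too.

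Of 11 genes of the glutathione and superoxide system 3 were higher (Slc3a2, given above, and Sod2 at 0.83 and Gpx8 at 0.60, both named after their values were seen) and 1 lower, beside 9.69% and 7.02% of all genes, with a median of 0.38. The lower gene was Sod1, the cytosolic superoxide dismutase, at 219 and 140 CPM (-0.64, -0.71 to -0.59), with ratios from -1.06 in microglia-like to -0.53 in astrocyte-like cells. Sod2 is the mitochondrial form. Gpx4, which protects membranes from lipid peroxides, was 1239 and 1106 CPM (-0.16, -0.19 to -0.14), and Gpx1 193 and 223 CPM (0.21, 0.16 to 0.26).

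**Figure D5:**
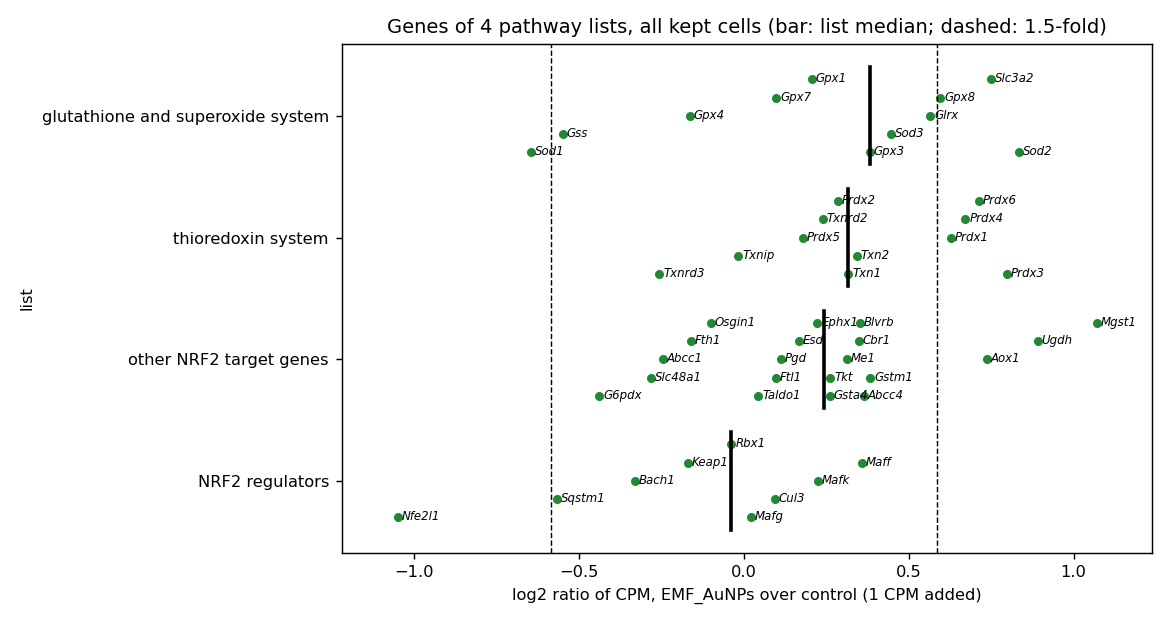
Log2 ratios of CPM (EMF_AuNPs over control, 1 CPM added, all kept cells; x axis) of each gene of the 4 pathway lists (y axis), with a black bar at each list's median and dashed lines at 1.5-fold. List medians run from -0.04 for NRF2 regulators to 0.38 for the glutathione and superoxide system, and Nfe2l1 at -1.05 is the lowest gene shown.

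Genes with the pattern most like each gene were found by the Pearson correlation of log2(CPM + 1) over the 22 points given by 11 classes in both libraries, among 10155 genes with at least 500 UMIs. For Txnrd1 they were Usp34 (r = 0.94), Rbm27 (0.92) and Wdr70 (0.91). For Cat they were Ggh (0.85), Cnksr3 (0.82) and Nudt7 (0.81), and for Slc7a11 they were Grin2c (0.94), Lcat (0.94) and Slc1a3 (0.93), of which Slc1a3 is among the markers that chose the astrocyte-like cells. For Hmox1 they were Tmem229b, Snx8 and Clec4a3 (0.86, 0.86 and 0.85), and for Nfe2l2 Heatr5a, Cradd and Elf1 (0.89, 0.86 and 0.86). For Gsr they were Cnn3, Acyp1 and Fam126a (0.85, 0.83 and 0.83), and for Nqo1 Tmem53, Adgra3 and Mut (0.88, 0.87 and 0.84). For Gclc they were Mib2, Cluap1 and Smad5 (0.88 each), for Gclm Hus1, Mpzl1 and Fmo1 (0.75, 0.74 and 0.74) and for Srxn1 Yeats2, Brms1l and Sox12 (0.94, 0.89 and 0.89). None of the genes most alike in this way was another of the 10. Between the 10 genes themselves r ran from -0.50 (Srxn1 and Nfe2l2) to 0.77 (Hmox1 and Nfe2l2), with Gclc and Gsr at 0.71, Txnrd1 and Gclc at 0.64 and Txnrd1 and Cat at -0.23. The points share libraries and depth, and many come from classes with few cells, so these values only describe the pattern.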

How the data were processed

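The deposited matrices hold whole-number UMI counts per gene and barcode, not normalised, 1 matrix per library. Per the submitters' processing notes, the authors used Cell Ranger (3.0.2), STAR and build mm10 to make these counts. The annotation is not given in the sources used here. Groups were taken from the treatment labels. Cells needed at least 500 UMIs and 250 genes. A cell entered 1 of 17 classes when it had at least 2 or 3 of that class's markers and a set minimum share of UMIs from them. Border macrophage-, smooth muscle- and Cajal-Retzius-like cells were taken before microglia-, pericyte- and neuron-like cells, and cells passing gates of different classes were left out as likely doublets (10.5% of control and 8.72% of EMF_AuNPs cells). The minimum shares were set after the distributions of marker shares were seen, and 4 of 132 markers were missing from the matrices. No annotation of cells by the authors was used, so class names are rebuilt.

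The members and gene lists were chosen with earlier results of these data known. UMIs were summed per class and library and scaled to CPM with the class total at 1e+06. Intervals of CPM are exact Poisson, those of ratios exact conditional binomial with nothing added, and those of shares Clopper-Pearson, all at 95%. A count of 0 allows up to 3 counts. Genes with at least 20 UMIs over both libraries were compared. Beside the 10 genes, the text names the 4 genes of each list with most UMIs, with Keap1, Txnrd2, Txn1 and Gpx4, and the 3 genes with the most similar pattern to each. Further genes are said to be named after their values were seen. Alternatives were 10 CPM added, cells with at least 1000 UMIs, gate conflicts kept, 1 more marker per gate, Scrublet calls (16.6% and 2.83% of cells) left out, scaling without the 50 most abundant genes, centring, the mean CPM over cells and leaving out the top cell. The calculation of ratios and intervals was checked on simulated counts. No test between the libraries was made. Python 3.11.15, numpy 2.4.6, scipy 1.17.1, pandas 2.3.3 and scanpy 1.11.5 were used, with gene coordinates from the GENCODE annotation of GRCm38.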

Additional observations from a re-analysis of the deposited data

Results flagged for a closer look

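Cells outside the compared classes counted among all kept cells but took no part in the comparisons by class, and the 10 genes were detected in them above the limit that a count of 0 allows. They were 3546 control and 1252 EMF_AuNPs cells of small classes, of no class or of gates in conflict. Txnrd1 had 484 and 91 UMIs there, 54.3 and 28.1 CPM, a log2 ratio of -0.93 (-1.29 to -0.63). Cat was 38.7 and 68.1 CPM (0.80, 0.57 to 1.06), Slc7a11 71.0 and 101 CPM (0.50, 0.31 to 0.70), Hmox1 5.72 and 10.5 CPM (0.77, 0.20 to 1.53) and Nqo1 4.26 and 10.8 CPM (1.16, 0.64 to 2.04). Gsr had a ratio of 0.51 (0.15 to 0.90), Gclc of 0.20 (-0.10 to 0.50) and Srxn1 of 0.041 (-0.53 to 0.59). Gclm had a ratio of -0.15 (-0.34 to 0.03) and Nfe2l2 of -0.37 (-0.57 to -0.18). These cells come from the same libraries and are no replicate.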

How the results depend on the processing

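Of 962 values that the 88 ratios took under the alternatives, 946 moved by less than their counting interval, 15 moved by more and 1 changed the sign of a ratio that was at least 1.5-fold: Slc7a11 in choroid plexus-like cells, 0.67 from 21 and 13 UMIs, was -0.64 with the mean CPM over cells. Where the interval is wide, as for Txnrd1 in neuron-like cells (-4.58 to 0.43), a large move still counts as less. Calls at 1.5-fold could change without such a move. Cat, higher in all 10 classes, fell under 1.5-fold in red blood cell-like cells with gate conflicts kept (0.18). It did so in smooth muscle-like cells with a marker share minimum 1.5 times higher (0.52) and in ependymal-like cells without the top cell (0.577). Among the 42 ratios under 1.5-fold, 11 took the other sign under at least 1 alternative, as Slc7a11 did in microglia-like cells (0.33, and -0.25 at a haemoglobin share under 1%). With the mean CPM over cells that Slc7a11 ratio was 0.61. Over all kept cells Txnrd1 was -0.75 with 10 CPM added and -1.15 with the mean CPM over cells, and Cat was 0.87 with 10 CPM added. With 10 CPM added, the genes at least 1.5-fold higher were 2 over all kept cells (5 in the report), 2 in microglia-like (4) and 1 in oligodendrocyte-like cells (3), and 0 were lower in choroid plexus-like cells (1). In astrocyte-like cells Hmox1 (0.70) was under 1.5-fold with 10 CPM added (0.30) or with centring (0.54). In microglia-like cells 2 were higher from cells with at least 1000 UMIs or with a minimum of 100 UMIs per gene, and 1 was lower (Txnrd1) with the mean CPM over cells, without the top cell, or in cells with 0 UMIs of border macrophage markers. In endothelial-like cells 2 were higher (1 in the report) from cells with at least 1000 UMIs, with gate conflicts kept or with a marker share minimum 1.5 times higher. In choroid plexus-like cells 2 were higher (4) without the 50 most abundant genes or with centring, which lowered the median of all genes by 0.18 and 0.29, and 2 were lower (1) with the mean CPM over cells. With that mean, Hmox1 there was 1.56 (0.29 in the report) and Srxn1 0.74 (0.05), both past 1.5-fold. The cause of these shifts was not tested. The marker share minimum, the haemoglobin settings and the border macrophage setting were added after seeing the data. No paired analysis was possible because each group has 1 library and the labels carry no replicate numbers. Depth limits the genes with few UMIs, and classes with few cells were left with under 20 UMIs for many of the 10 genes.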

Other observations

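Fibroblast-like cells, 77 in control and 37 in EMF_AuNPs, were too few to compare, but held the highest Slc7a11 level of any class, 1169 CPM from 210 UMIs in 52 cells and 718 CPM from 88 UMIs in 25 cells. Their log2 ratio was -0.70 (-1.08 to -0.34), where that of astrocyte-like cells was 0.80. In the same cells Txnrd1 had 23 and 2 UMIs. The cells were named by markers of connective tissue such as Dcn and Col1a1, and a difference between the classes was not tested.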
